A study of Homo sapiens with 6 samples.

Results

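The genes described here encode 10 surface proteins of plasma cells that antibodies, antibody-drug conjugates or engineered T cells against multiple myeloma have been directed at. They are TNFRSF17 (BCMA), TNFRSF13B (TACI), SDC1 (CD138, syndecan-1), CD38, SLAMF7 (CS1), LY9 (CD229), GPRC5D, FCRL5, CD47 and NCAM1 (CD56). They were chosen by symbol, and all 10 were found among the 61498 genes of the deposited tables and passed the filter on low counts. The libraries came from 3 untreated human cell lines, with 2 libraries per line, made from total RNA after ribosomal RNA was removed. RPMI-8226 is an established line from a multiple myeloma. From it derives RPMI-8226-R, which resists the proteasome inhibitor bortezomib, and NCI-BL2171 is the remaining line. The labels give B lymphocytes as the cell type and no treatment for the libraries. The sources used here do not say how resistance was raised, whether RPMI-8226-R is a clone, or whether paired libraries are separate cultures. P-values therefore reflect the spread between the 2 libraries of a line, estimated over the 3 lines together and moderated across genes. That spread may be technical.

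Plasma cells are the antibody-secreting end stage of the B lineage, and myeloma is a cancer of these cells. BCMA and TACI are receptors for the survival factors BAFF and APRIL, and syndecan-1 carries heparan sulphate chains that bind APRIL and other ligands. CD38 is an ectoenzyme that consumes NAD, SLAMF7 and LY9 belong to the SLAM receptors of lymphocytes, GPRC5D is an orphan receptor of the G protein-coupled type, and FCRL5 is an immunoglobulin receptor of the B lineage. CD47 is found on most cells and signals to SIRPA on macrophages to hold back phagocytosis. NCAM1 is an adhesion molecule of neurons and natural killer cells that normal plasma cells mostly lack and many myelomas carry. The assay reads RNA, so nothing here measures protein at the surface.

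The 6 libraries held 23952370 to 29052199 estimated reads each. Markers set the lines apart. The 10 plasma cell markers summed to 55728 to 58335 TPM (a level per length of transcript, scaled to the library) in RPMI-8226 and 34020 to 35094 in RPMI-8226-R, against 133 to 134 in the libraries labelled NCI-BL2171, where 4 of them, among 10, were at 0. That sum is mostly IGLC2, a light chain gene (52109 and 54588 TPM in RPMI-8226, 29097 and 30034 in RPMI-8226-R), and of the 10 markers 5 rose and 5 fell between these lines, with JCHAIN at 1383 and 1495 against 3147 and 3208 TPM. The 10 B cell markers summed to 5476 to 5634 TPM in RPMI-8226 and to 179 to 186 in RPMI-8226-R, against 5.61 to 5.76 in the libraries labelled NCI-BL2171. Here CD74 made up most of the sum (5440 and 5600 TPM in RPMI-8226, 134 and 140 in RPMI-8226-R), and of 8 markers tested 5 fell and 2 rose, which were PAX5 and BLK, the latter from 707 and 666 to 1152 and 1284 reads. The 10 erythroid markers summed to 60056 to 62590 TPM in the libraries labelled NCI-BL2171, against 61.4 to 187 in the other libraries. These values go against a B lymphocyte label, so that group is named by its label only. T and natural killer cell markers stayed at 2.35 to 7.11 TPM in sum, and myeloid markers at 86.3 to 86.5 in the libraries labelled NCI-BL2171, 23.6 to 25.2 in RPMI-8226 and 9.29 to 10.7 in RPMI-8226-R. Which part these differences in cell identity have in the results on the surface antigens was not tested.

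CD47, SDC1, TNFRSF13B, CD38, NCAM1 and TNFRSF17 were at 7.42 TPM or more in both RPMI-8226 lines, GPRC5D was at 1.15 to 1.84 TPM, and SLAMF7, LY9 and FCRL5 were under 1 TPM. In the libraries labelled NCI-BL2171 all but CD47 and SDC1 were at or near 0. Summed over the 10 genes, the level was 194 and 200 TPM in the RPMI-8226 libraries, 326 and 357 in the RPMI-8226-R libraries and 40.0 and 35.8 in the libraries labelled NCI-BL2171. CD47 alone made up 93.8% and 92.1% of the sum in the last of these, against 41.6% and 43.9% in RPMI-8226 and 34.4% and 29.9% in RPMI-8226-R. NCAM1 had the reverse course, from 0 through 4.22% and 4.64% in RPMI-8226 to 17.9% and 20.2% in RPMI-8226-R. In TPM, differences of RPMI-8226-R from RPMI-8226 lay above those in normalised counts by a median log2 of 0.36. The gap between the summed levels of these 2 lines therefore depends on the scale.

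**Figure D1:**
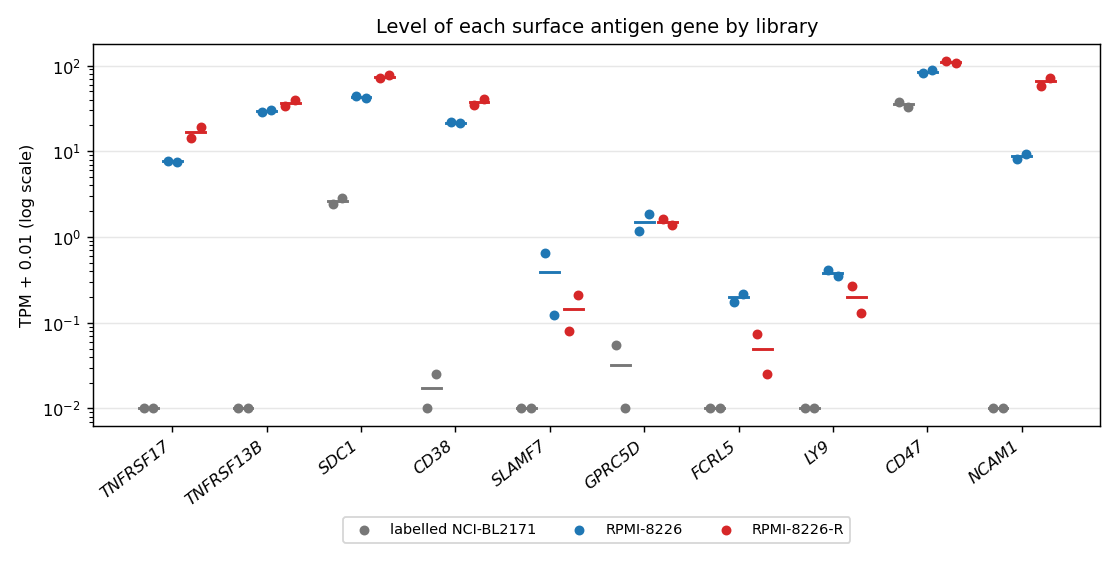
Level of each of the 10 genes in TPM + 0.01 on a log axis, with 1 point per library and a bar at the mean of the 2 libraries of a line. Points at the bottom (0.01) are libraries in which the gene is at 0. NCAM1 is at 8.19 and 9.27 TPM in RPMI-8226 and at 58.2 and 72.2 TPM in RPMI-8226-R, the widest gap between these 2 lines among genes above 1 TPM.

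In RPMI-8226 the order of mean levels was CD47 at 84.2 ± 4.89 TPM (SD, n = 2, as for all means here), SDC1 at 43.0 ± 1.36, TNFRSF13B at 29.4 ± 0.595, CD38 at 21.6 ± 0.748, NCAM1 at 8.73 ± 0.757 and TNFRSF17 at 7.59 ± 0.248. Each of these neighbours in the order lay apart in both libraries. GPRC5D followed at 1.50 ± 0.494 TPM. SLAMF7 at 0.378 ± 0.373, LY9 at 0.367 ± 0.0438 and FCRL5 at 0.187 ± 0.0311 came last, and the spread of SLAMF7 covered both of the others. In RPMI-8226-R the order changed through NCAM1, which at 65.2 ± 9.89 TPM overlapped SDC1 at 74.2 ± 4.52, below CD47 at 109 ± 3.78. CD38 at 37.6 ± 4.12 and TNFRSF13B at 36.8 ± 4.44 overlapped each other, TNFRSF17 stood at 16.7 ± 3.34 and GPRC5D at 1.49 ± 0.179. LY9 at 0.190 ± 0.0990 overlapped SLAMF7 at 0.136 ± 0.0948, with FCRL5 last at 0.0395 ± 0.0346. Within each RPMI-8226-R library SDC1 was above NCAM1 and CD38 above TNFRSF13B, while LY9 and SLAMF7 changed places. Ranked by mean TPM among 19853 protein-coding genes, NCAM1 went from place 6615 in RPMI-8226 to 1889 in RPMI-8226-R, SDC1 from 2300 to 1669 and CD47 from 1195 to 1103. GPRC5D, the target of a bispecific antibody used in myeloma, was at places 10572 and 10382.

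Between RPMI-8226-R and RPMI-8226, which asks how the antigens differ with bortezomib resistance in 1 line, 4 of the 10 genes rose, 2 fell and 4 missed the threshold of the test. Those that rose were NCAM1 (8.21-fold), CD38 (1.73-fold), TNFRSF17 (1.66-fold) and SDC1 (1.31-fold). FCRL5 and LY9 fell, from levels already under 1 TPM. Both passed the filter on low counts only through RPMI-8226, where they were higher, so that their entry into the test favoured a fall. Among related genes named below, FCRL1, FCRL2, GPRC5A, MMP9, MS4A1, NT5E, XYLT1, SULF1, SULF2 and QPCT entered in the same way. Of all 20081 genes tested, 65.6% were called, 28.5% as higher and 37.2% as lower in RPMI-8226-R, so a share of 6 in 10 is near the background. These shares are also the background, in normalised counts, for the lists of related genes below. On the log2(TPM + 1) scale 5 of the 10 genes rose and 1 fell, and of all calls 60.7% were higher, against 43.4% in normalised counts. There 7030 of the 20081 genes tested were called higher and 4557 lower, with a median log2 difference of 0.08. These values are the background for the lists below on that scale. The 1 added to TPM shrinks the difference of any gene under 1 TPM. The median log2 difference of the 10 genes in normalised counts was -0.11, against -0.12 over all genes tested. Libraries of the 2 lines did not overlap in normalised count for 8 of the 10 genes, against 80.6% of all genes tested. Calls are adjusted p-values under 0.05 from edgeR's quasi-likelihood test, and differences are log2 values ± SE of CPM (TMM-normalised counts scaled to library size), which are not divided by length. In bulk RNA, fewer cells of a type and less RNA per cell cannot be told apart.

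**Figure D2:**
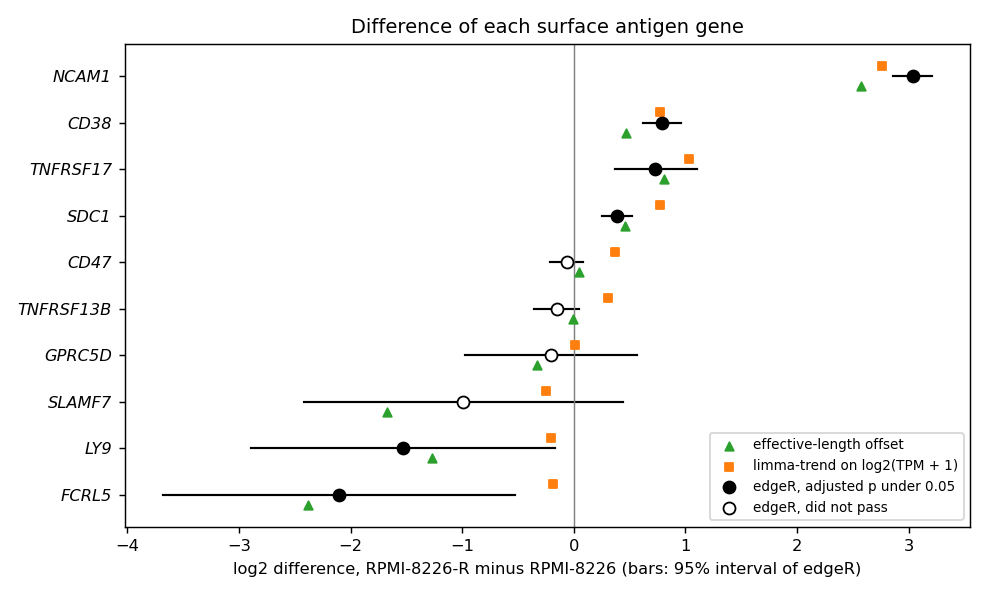
Log2 difference of each gene, RPMI-8226-R minus RPMI-8226, with a 95% interval derived from the edgeR test as a bar. Filled circles have an adjusted p under 0.05, and triangles and squares give the same difference with effective length as an offset and on the log2(TPM + 1) scale. NCAM1 stands at 3.04, CD38, TNFRSF17 and SDC1 lie between 0.39 and 0.79, and CD47, TNFRSF13B and GPRC5D change sign with the scale.

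Among the BAFF and APRIL receptors, TNFRSF17 (ENSG00000048462.11, chr16:11965107-11968068, plus strand) was at 7.77 and 7.42 TPM in RPMI-8226 and 14.4 and 19.1 TPM in RPMI-8226-R, from 187, 172, 279 and 361 reads. Both RPMI-8226-R libraries were above both RPMI-8226 libraries, but they lay further from each other than the parental pair did. In normalised counts it rose from 6.88 ± 0.109 to 11.4 ± 1.53 CPM, a log2 difference of 0.73 ± 0.18 (adjusted p = 0.00107). The gene overlaps NPIPB2, a member of a family of near-identical copies, on the other strand, which had 223 reads in RPMI-8226 and 455 in RPMI-8226-R and rose by 0.93 on the log2 scale. The sources used here do not say whether strand was used in counting, so reads of the overlap cannot be told apart. Of the nearest protein-coding neighbours of each antigen gene, up to 3 per side within 500 kb, the 4 of TNFRSF17 (RSL1D1, GSPT1, NPIPB2 and SNX29) rose, by log2 differences of 0.39 to 1.26, beside 28.5% of all genes tested. Of the neighbours tested, 3 of 4 rose at TNFRSF13B, 1 rose and 3 fell of 5 at SDC1, 1 rose and 4 fell of 5 at GPRC5D, and 3 of 3 fell at FCRL5. The other 5 antigen genes had 1 to 3 neighbours tested and at most 1 call each. These counts describe the regions, with no test of them.

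TNFRSF13B (ENSG00000240505.9, chr17:16929816-16972118, minus strand) was the more abundant of the pair per length, at 29.0 and 29.9 TPM in RPMI-8226 and 33.6 and 39.9 TPM in RPMI-8226-R. The RPMI-8226-R libraries were higher in TPM, whereas in normalised counts they were lower, at 39.2 ± 4.34 against 43.6 ± 1.65 CPM. The difference of -0.15 ± 0.10 (95% interval -0.36 to 0.05) did not pass (adjusted p = 0.178), and on the log2(TPM + 1) scale it was 0.31 (adjusted p = 0.0647, limma). The difference on the TPM scale was above that on the count scale for 80.9% of the genes tested, with a median shift of 0.36, and below it for others, so that the shift is no constant to subtract. On the same strand TNFRSF13B overlaps the pseudogene TBC1D27P, with 409 reads in RPMI-8226 and 1041 in RPMI-8226-R, and reads shared with it could be split either way.

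In normalised counts the partners of these receptors mostly fell. In the list of the BAFF and APRIL system, 7 of 9 genes tested fell, 1 rose and 1 did not pass, with a median of -0.68. Of all genes tested, 37.2% were called lower and 28.5% higher. On the log2(TPM + 1) scale 2 fell and 2 rose, with a median of -0.17 against 0.08 over all genes tested. TNFSF13B, TNFRSF13C, CAMLG and TRAF6 were among those that lost their calls. TNFSF13B was under 1 TPM in both lines, where the added 1 shrinks any fold, so its lost call says little about its fall. TNFSF13, the gene of APRIL, fell from 19.1 ± 1.83 to 11.0 ± 2.05 CPM (log2 difference -0.79 ± 0.16, adjusted p = 1.5e-04), a call lost on the TPM scale. TNFSF13B, the gene of BAFF, went from 0.689 ± 0.0244 to 0.0173 ± 0.0245 CPM, a ratio of counts of 38.5 (95% counting interval 6.48 to 1563). TRAF1 and TRAF3, adaptors of receptors of this class, fell 4.96-fold and 2.49-fold, and TRAF5 rose 1.97-fold. TRAF3 reads in both lines were assigned to short transcripts. Its effective length was 470 and 520 bases in RPMI-8226 and 657 and 539 in RPMI-8226-R. In the libraries labelled NCI-BL2171 it was 5632 and 5542. The gamma-secretase and sheddase list holds the protease that releases BCMA from the surface. Of its 9 genes tested 4 rose and 3 fell, with a median of 0.07. On the log2(TPM + 1) scale 6 rose and 1 fell, with a median of 0.48 against 0.08 over all genes tested. PSEN2, of the catalytic part of that protease, rose 2.08-fold and APH1A 1.36-fold, while NCSTN (-0.12 ± 0.07) and PSENEN (0.07 ± 0.13) did not pass. APH1B, under 1 TPM in both lines, fell from 0.686 ± 0.187 to 0.0544 ± 0.0280 CPM (lost on the TPM scale, adjusted p = 0.0546). MMP9, a matrix metalloproteinase, had 3.87 ± 0.0492 CPM in RPMI-8226 and no read in RPMI-8226-R. Against a floor of 3 counts per library this is at least 36.0-fold lower.

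SDC1 (ENSG00000115884.11, chr2:20200797-20225433, minus strand) was at 43.9 and 42.0 TPM in RPMI-8226 and 71.0 and 77.4 TPM in RPMI-8226-R, with 4204 to 6340 reads per library. The lines did not overlap and the libraries of a line lay close together. In normalised counts it rose from 166 ± 0.380 to 218 ± 2.78 CPM, a log2 difference of 0.39 ± 0.06 (adjusted p = 1.7e-05). On the TPM scale the difference was 0.77. The other syndecans went different ways. SDC4 fell from 27.4 ± 1.95 CPM (700 and 728 reads) to 1 read in each RPMI-8226-R library, a ratio of 764 (counting interval 211 to 6312), and SDC3 fell 2.48-fold. SDC2 rose from 0.380 ± 0.146 to 2.36 ± 0.0378 CPM, 6.12-fold, a call lost with effective length as an offset (adjusted p = 0.0887).

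Of 22 syndecan and heparan sulphate genes 10 rose, 10 fell and 2 did not pass, with a median of -0.29. With the length offset 6 rose and 11 fell, and with upper-quartile factors 7 rose and 11 fell. Of all genes tested, 4886 rose and 6539 fell with that offset, and 5287 rose and 7942 fell with those factors. Among the enzymes that build or sulphate the chain, NDST1, HS6ST2, HS6ST1 and HS2ST1 rose 3.41-fold, 4.12-fold, 1.62-fold and 1.37-fold, while the epimerase GLCE fell 3.41-fold and XYLT1, which starts chains, fell from 1.95 ± 0.708 CPM to no read. The 3 genes that trim chains outside the cell fell. The sulphatase SULF2 went from 24.4 ± 0.624 CPM to 1 read per library, a ratio of 681 (188 to 5632), SULF1 fell 88.0-fold, and HPSE, the heparanase that takes part in shedding of syndecan-1, fell 7.78-fold.

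CD38 (ENSG00000004468.13, chr4:15778275-15853230, plus strand) was at 22.1 and 21.1 TPM in RPMI-8226 and 34.6 and 40.5 TPM in RPMI-8226-R. The RPMI-8226-R libraries, with 3396 and 4233 reads, were both above the parental ones, with 2103 and 2017. In normalised counts the gene rose from 79.0 ± 1.09 to 136 ± 14.6 CPM, a log2 difference of 0.79 ± 0.08 (adjusted p = 4.1e-08). The effective length of the gene, which moves with the mix of its transcripts, went from 2910 and 2992 to 3718 and 3952 bases, and with length as an offset the difference was 0.47 (adjusted p = 0.00237). Of its enzyme context, 6 of 9 NAD and adenosine genes tested fell and 1 rose, with a median of -0.69. NAMPT, which recycles nicotinamide to NAD, fell 3.52-fold, from 416 ± 13.5 to 118 ± 1.10 CPM. NAPRT, which makes NAD from nicotinic acid, rose 1.53-fold. NT5E (CD73), which releases adenosine from AMP, went from 1.71 ± 0.685 to 0.0185 ± 0.0262 CPM, a ratio of 96.3 (16.8 to 3844). BST1, the relative of CD38 75.3 kb from it by annotated start, was too low to test, at 0.0355 and 0.137 TPM in the mean of the 2 lines.

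Windows of 250 bases before the start of transcription were held in the RefSeq table (GRCh38.p14) for 6 of the 10 genes, and are shown for CD38 and SDC1, which rose, and CD47, which was expressed in all 3 lines. Written 5′ to 3′ on the strand of the gene, they lie at chr4:15778078-15778327, chr2:20225476-20225725 and chr3:108091032-108091281. Capitals mark matches on either strand to the motifs searched, which were the octamer, the ETS-IRF composite element, the IRF element, the XBP1 core (ACGTG), the GC box (GGGCGG), the TATA box and the cyclic AMP response element.
CD38: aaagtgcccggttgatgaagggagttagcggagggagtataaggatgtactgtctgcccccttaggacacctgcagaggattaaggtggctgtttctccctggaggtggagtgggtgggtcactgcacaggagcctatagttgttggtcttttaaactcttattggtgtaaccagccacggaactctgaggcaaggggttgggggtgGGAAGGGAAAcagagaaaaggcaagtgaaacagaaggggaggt
SDC1: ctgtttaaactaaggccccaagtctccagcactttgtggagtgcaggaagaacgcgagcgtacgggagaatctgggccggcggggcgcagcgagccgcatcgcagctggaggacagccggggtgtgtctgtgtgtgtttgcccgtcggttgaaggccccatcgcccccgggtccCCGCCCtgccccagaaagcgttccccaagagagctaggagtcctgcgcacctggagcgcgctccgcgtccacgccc
CD47: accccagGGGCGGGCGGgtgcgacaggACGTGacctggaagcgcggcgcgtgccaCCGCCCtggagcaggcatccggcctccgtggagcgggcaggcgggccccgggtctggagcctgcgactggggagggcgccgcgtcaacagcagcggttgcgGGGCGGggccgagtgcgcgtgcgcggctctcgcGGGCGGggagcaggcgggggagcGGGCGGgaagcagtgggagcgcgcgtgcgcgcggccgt
CD38 had 52.4% G and C and 3 CpG dinucleotides, SDC1 66.4% and 23, and CD47 79.6% and 39, against medians of 58% and 11 over 35116 promoters of the same length. The CD38 window held 1 match to the ETS-IRF composite, which starts 43 bases before the start and which 2.41% of promoters hold. The SDC1 window held 1 GC box, as 42.6% of promoters do, and the CD47 window held 6 (some overlapping) and 1 ACGTG, which 18.5% hold. The CD47 start in this table lies 831 bases inside the GENCODE 29 gene model, so the whole CD47 window is within that gene. The CD38 start lies 53 bases inside its gene model, so the ETS-IRF match is within that gene too. The SDC1 start lies 42 bases upstream of its gene model. These are matches of letters, and the RNA data do not measure binding.

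The SLAM receptors were low. SLAMF7 (ENSG00000026751.17, chr1:160739057-160754821, plus strand), the target of elotuzumab, had 22 and 8 reads in RPMI-8226 and 4 and 12 in RPMI-8226-R, so the lines overlapped. Its log2 difference was -0.99 ± 0.68 (95% interval -2.42 to 0.44, adjusted p = 0.213), and differences of that width could not be told from 0 at this depth. LY9 (ENSG00000122224.18, chr1:160796074-160828261, plus strand), which starts 57.0 kb from SLAMF7, had 18 and 15 reads in RPMI-8226 and 8 and 4 in RPMI-8226-R. The lines did not overlap, and it fell by 1.53 ± 0.65 on the log2 scale (adjusted p = 0.0455). The call held under 5 of 15 alternatives, with adjusted p-values of 0.0150 to 0.263, and was lost without RPMI-8226 replicate 1 (-1.44, 0.167), RPMI-8226 replicate 2 (-1.62, 0.108) or RPMI-8226-R replicate 2 (-1.08, 0.236).

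In the same gene cluster on chromosome 1, CD48, the ligand of other SLAM receptors, was the most abundant, at 2.94 and 2.95 TPM in RPMI-8226 and 2.31 and 2.73 TPM in RPMI-8226-R, and did not pass (-0.62 ± 0.33, adjusted p = 0.105). SLAMF1 and CD244 had no read in either line. Over the SLAM family and its adaptors, 2 of 8 genes tested rose, 2 fell and 4 did not pass, and 5 others were not tested. FYN, the kinase recruited by the adaptor SH2D1A, rose from 2.03 ± 0.752 to 9.74 ± 0.973 CPM (4.76-fold) and the phosphatase gene PTPN11 rose 1.41-fold. PTPN6, another phosphatase gene, fell 1.79-fold, and SLAMF6 went from 0.679 ± 0.382 to 0.0185 ± 0.0262 CPM.

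GPRC5D (ENSG00000111291.9, chr12:12940775-12952147, minus strand) was at 1.15 and 1.84 TPM in RPMI-8226 and 1.61 and 1.36 TPM in RPMI-8226-R, from 43 to 56 reads. The RPMI-8226-R libraries lay between the parental ones, and the log2 difference was -0.20 ± 0.37 (95% interval -0.97 to 0.57, adjusted p = 0.659). All 3 of its relatives in the list fell. GPRC5A, 50.0 kb away, fell from 53 and 33 reads to 2 and 3 (17.5-fold in CPM), GPRC5B from 306 and 347 reads to 12 and 14 (26.7-fold), and GPRC5C from 149 and 145 to 25 and 38 (4.99-fold). The antisense gene GPRC5D-AS1 had 128 reads in the libraries labelled NCI-BL2171, 2 in RPMI-8226 and 0 in RPMI-8226-R, and without known strand setting its reads and those of GPRC5D cannot be told apart.

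FCRL5 (ENSG00000143297.19, chr1:157513377-157552520, minus strand) had 14 and 19 reads in RPMI-8226 and 7 and 1 in RPMI-8226-R. The lines did not overlap, and it fell by 2.10 ± 0.75 on the log2 scale (adjusted p = 0.0192), over a range of 0.00351 to 0.182 in the alternatives. The call was lost with DESeq2 (-2.07, 0.182), without RPMI-8226 replicate 2 (-1.82, 0.131) and without RPMI-8226-R replicate 2 (-1.27, 0.172). Without RPMI-8226-R replicate 1 the difference was -4.02. Of 5 other FCRL genes tested 4 fell, with a median of -1.24, and FCRL6 did not pass, at 0.460 ± 0.0199 CPM in RPMI-8226 and 0.490 ± 0.252 CPM in RPMI-8226-R. FCRL2, in the same cluster, went from 92 and 85 reads to 0 and 3, a ratio of 63.1 (21.2 to 309), and FCRL1 from 57 and 50 reads to 1 and 2, a ratio of 38.1 (12.7 to 188). FCRL1 and FCRL2 passed the filter on low counts only through RPMI-8226, which favoured their fall. FCRLA, an intracellular relative, remained the most abundant, at 19.9 ± 0.113 and 8.42 ± 0.103 CPM, and fell 2.37-fold.

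**Figure D3:**
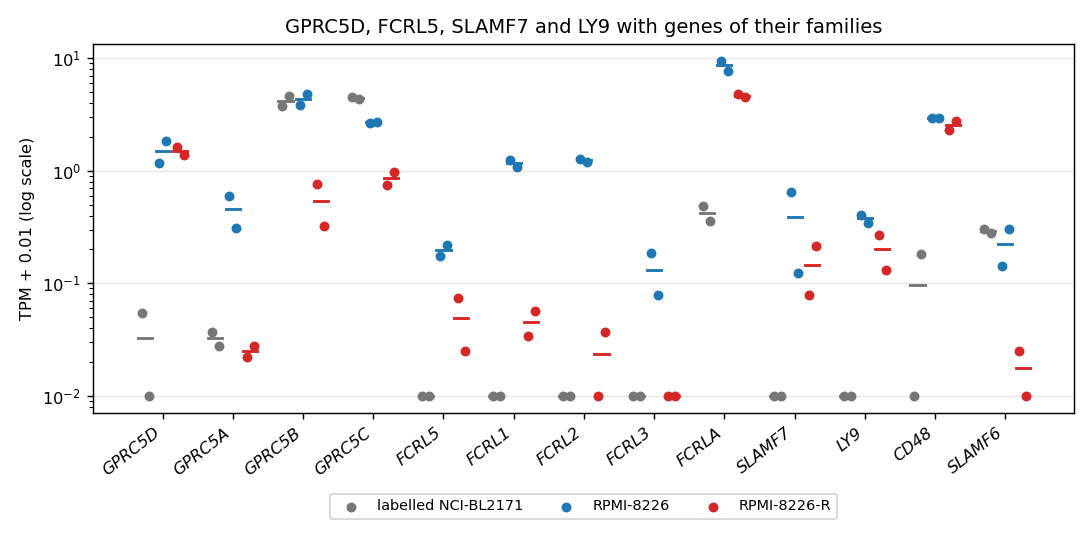
Level of GPRC5D, FCRL5, SLAMF7, LY9 and genes of their families in TPM + 0.01 on a log axis, with 1 point per library and a bar at the mean of a line. GPRC5A, GPRC5B, GPRC5C, FCRL1 and FCRL2 are far lower in RPMI-8226-R than in RPMI-8226, whereas GPRC5D overlaps between the 2 lines at 1.15 to 1.84 TPM.

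CD47 (ENSG00000196776.17, chr3:108043094-108091862, minus strand) was the most abundant of the 10 genes per length in each of the 3 lines. It was at 80.8 and 87.7 TPM in RPMI-8226 and 112 and 107 TPM in RPMI-8226-R. In normalised counts the lines were almost level, at 97.5 ± 1.57 and 93.3 ± 0.279 CPM, a log2 difference of -0.06 ± 0.07 (95% interval -0.21 to 0.08, adjusted p = 0.444). On the log2(TPM + 1) scale it was 0.37 (adjusted p = 0.0114, limma), close to the median shift of 0.36 on that scale. Of 7 partner genes tested, 4 fell and 3 did not pass. QPCTL, the glutaminyl cyclase that modifies CD47 for binding to SIRPA, fell 1.50-fold (lost on the TPM scale, where it was -0.06), and its relative QPCT fell 6.12-fold. CALR, which when exposed at the surface favours phagocytosis, fell 1.68-fold, from 1327 ± 9.80 to 790 ± 19.1 CPM, and the receptor gene LRP1 fell 2.28-fold. SIRPA itself was at 18.8 ± 0.271 and 17.7 ± 0.246 CPM and did not pass (-0.09 ± 0.13).

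NCAM1 (ENSG00000149294.17, chr11:112961247-113278436, plus strand) was at 8.19 and 9.27 TPM in RPMI-8226 and 58.2 and 72.2 TPM in RPMI-8226-R, from 465, 470, 3871 and 4355 reads. Both RPMI-8226-R libraries were several times above both parental ones. In normalised counts NCAM1 rose from 17.9 ± 0.912 to 147 ± 5.15 CPM, a log2 difference of 3.04 ± 0.08 (adjusted p = 7.4e-17). It was the only one of the 10 with a called rise of at least 1 on the log2 scale, which 11.8% of all genes tested had, and 280 of 20081 genes had a larger difference. Its effective length went from 1739 and 1587 to 2522 and 2279 bases. With length as an offset the difference was 2.57 (adjusted p = 1.4e-06), the lowest of 15 alternatives, and 3.12 was the highest. Antisense genes inside NCAM1 were low, at 2 and 4 reads per line for NCAM1-AS1 and 2 and 72 for ENSG00000247416.

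The relatives and modifiers of NCAM1 did not move with it as a set. NCAM2 fell from 635 and 550 reads to 128 and 153 (4.51-fold in CPM) and L1CAM, another adhesion molecule of the immunoglobulin family, from 1220 and 1193 to 75 and 93 (15.4-fold). ST8SIA2, which puts polysialic acid on NCAM1, rose 1.57-fold, from 8.05 ± 0.979 to 12.6 ± 0.105 CPM. ST8SIA4, the other polysialyltransferase, rose 1.48-fold in normalised counts, from 74.8 ± 0.883 to 111 ± 2.64 CPM, but its effective length went from 1205 and 1116 to 2741 and 2694 bases. With length as an offset it was lower in RPMI-8226-R, by -0.61 on the log2 scale (adjusted p = 4.7e-04), and in TPM it was at 50.7 and 53.5 against 40.5 and 45.5. Its direction therefore rests on the scale. FGFR1, a receptor that NCAM1 binds, rose 1.59-fold, a call lost with the length offset (0.34, adjusted p = 0.193). In all, 3 of these 5 genes rose and 2 fell, with a median of 0.56. With the length offset 1 rose and 3 fell, with a median of -0.61 against -0.12 over all genes tested.

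**Figure D4:**
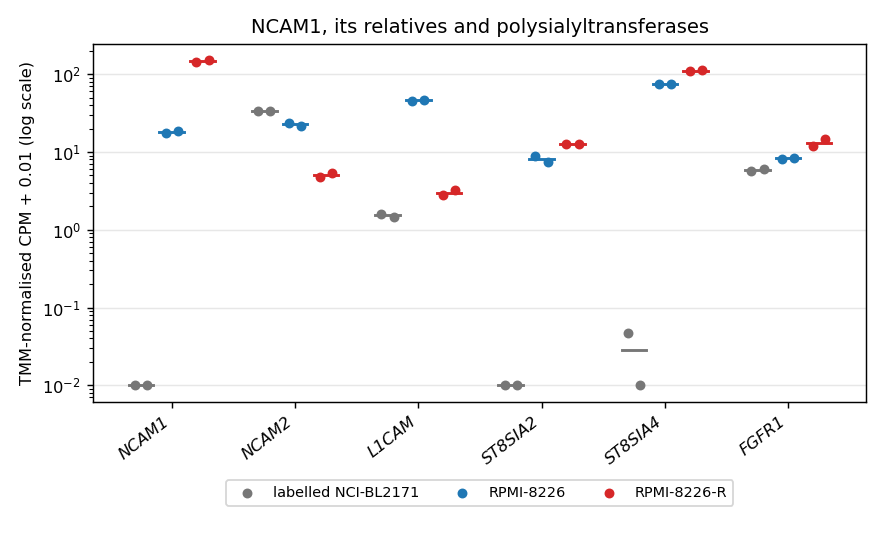
Normalised count (CPM + 0.01, log axis) of NCAM1, 2 relatives, both polysialyltransferases and FGFR1, with 1 point per library and a bar at the mean of a line. NCAM1 rises from 17.9 to 147 CPM between RPMI-8226 and RPMI-8226-R while NCAM2 and L1CAM fall, and the rise of ST8SIA4 turns into a fall when effective length is taken into account.

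Other antigens that have been targets of therapy in blood cancers fell more often than they rose. Of 29 tested, 19 fell, 5 rose and 5 did not pass, with a median of -1.47 against -0.12 over all genes. Falls were also more frequent among all genes tested, with 37.2% called lower and 28.5% called higher. On the log2(TPM + 1) scale, where 7030 of all genes tested were called higher and 4557 lower, 14 of these antigens fell and 6 rose. Their median there was -0.32, against 0.08 over all genes. The largest falls among those above 1 CPM were of CD74, CD40, CD86 and MS4A1. CD74, the invariant chain of MHC class II, fell from 6122 ± 173 to 122 ± 5.48 CPM (50.3-fold), CD40 fell 26.2-fold and CD86 17.9-fold, and MS4A1 (CD20) went from 6.84 ± 0.675 CPM to no read. ICAM1, CD28, CXCR4 and CD70 fell 4.41-fold, 3.28-fold, 2.77-fold and 2.71-fold. IL6R, the receptor of the myeloma growth factor IL-6, rose 2.50-fold, and IGF1R, TNFRSF8 (CD30), KIT and CD44 rose 1.78-fold, 2.29-fold, 2.97-fold and 1.44-fold. LILRB4 (0.04 ± 0.11) and TFRC (0.05 ± 0.07) did not pass. The B cell markers include CD74, MS4A1, CD22 and CD79B, which are counted among these antigens too, so their fall is no separate value. Of the B cell markers tested that are not among the antigens, CR2 fell by 5.68 on the log2 scale, and BLK and PAX5 rose 1.66-fold and 2.58-fold. Their part in these values was not tested.

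The regulators of complement, which limit the action of antibodies that recruit it, had 4 falls, 1 rise and 1 gene that did not pass among 6 tested, with a median of -0.97. On the log2(TPM + 1) scale 2 rose and 2 fell, with a median of -0.14 against 0.08 over all genes tested. The fall of CR1, which was under 1 TPM, rested on 3 reads in each RPMI-8226 library (lost with DESeq2, adjusted p = 0.0607, and on the TPM scale, 0.285). CD55 fell 1.56-fold (lost on the TPM scale, -0.21), and CLU fell 3.43-fold. CD46 rose 1.22-fold. CD59, the inhibitor of the membrane attack complex, was at 56.1 and 61.2 TPM in RPMI-8226 and 110 and 116 TPM in RPMI-8226-R. Its call depended on the scale, with 0.14 ± 0.07 in normalised counts (adjusted p = 0.0719), 0.62 with the length offset (adjusted p = 1.9e-04) and 0.93 on the TPM scale. Of 14 transcription factors of plasma and B cells, 6 rose, 7 fell and 1 did not pass. IRF4, POU2AF1, XBP1 and IKZF3, which act in plasma cells, rose 1.50-fold, 2.08-fold, 1.22-fold and 2.53-fold, and PRDM1, which drives their differentiation, fell 1.73-fold. Among factors of earlier B cell stages, BCL6, SPIB and MEF2C fell 53.1-fold, 18.4-fold and 15.8-fold, and PAX5 rose 2.58-fold, from 17 and 27 to 67 and 55 reads.

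**Figure D5:**
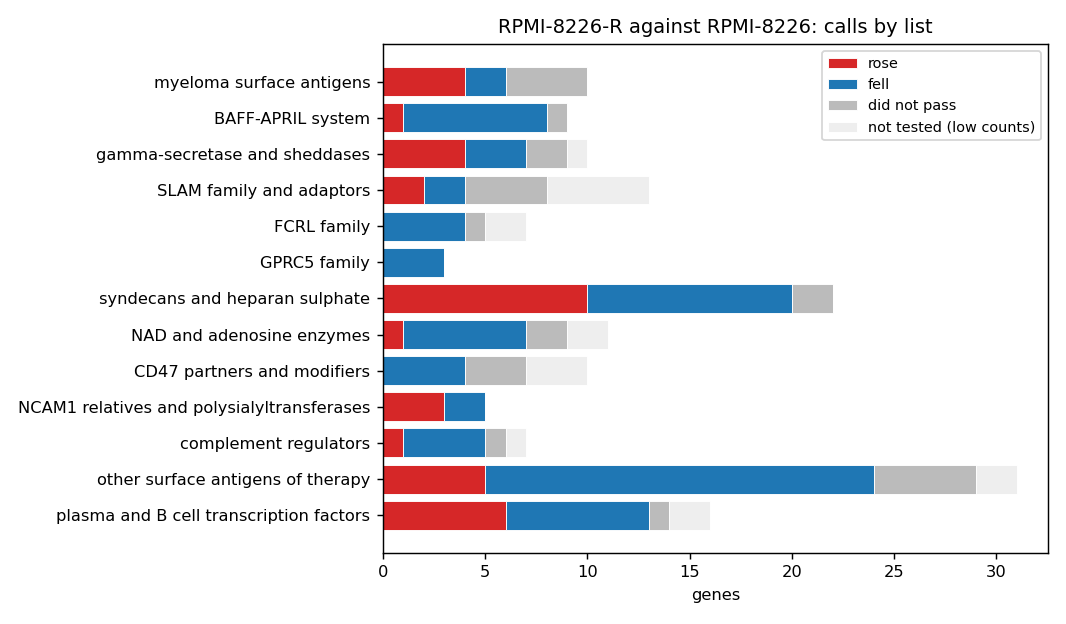
Number of genes that rose, fell, did not pass or were not tested in RPMI-8226-R against RPMI-8226. Bars stand for the 10 surface antigens (top bar) and the 12 lists of related genes. The antigens have 4 rises and 2 falls, and the list of other surface antigens of therapy has 5 rises and 19 falls. Of all genes tested, 28.5% rose and 37.2% fell.

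Against the libraries labelled NCI-BL2171, all 10 genes were higher in RPMI-8226, and all 10 were higher in RPMI-8226-R. Of all genes tested, 41.1% were called higher in RPMI-8226 than in those libraries and 39.2% in RPMI-8226-R, 35.6% and 38.2% were called lower, and 76.7% and 77.4% were called in either direction. In both comparisons the libraries of the lines lay apart for all 10 genes, against 88.4% and 87.3% of all genes tested. The 2 comparisons share the libraries labelled NCI-BL2171, so they are given side by side and not as independent results. The genes TNFRSF17, TNFRSF13B, SLAMF7, FCRL5, LY9 and NCAM1 had no read in either of those libraries and passed the filter only through the RPMI-8226 lines, so that they had to differ. CD38 (0 and 2 reads there) and GPRC5D (1 and 0 reads) also passed only through the RPMI-8226 lines. For all these genes the filter favoured a higher level in those lines, so the shares over all genes are no measure for them. Only SDC1 and CD47 reached the filter in the libraries labelled NCI-BL2171 as well. With 3 counts per library as the floor, TNFRSF13B was at least 378-fold higher in RPMI-8226 and at least 339-fold higher in RPMI-8226-R. NCAM1 was at least 155-fold and at least 1275-fold higher, and TNFRSF17 at least 59.6-fold and at least 99.0-fold. The bounds for SLAMF7, LY9 and FCRL5 in RPMI-8226 were at least 4.91-fold, 5.47-fold and 5.51-fold, set by their low counts.

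CD38 had 0 and 2 reads in the libraries labelled NCI-BL2171, which gives ratios of counts of 2055 (95% counting interval 569 to 16978) in RPMI-8226 and 3559 (985 to 29389) in RPMI-8226-R. GPRC5D had 1 and 0 reads there, with ratios of 101 (17.7 to 4019) and 87.7 (15.4 to 3500). SDC1 was measurable in all 3 lines, at 2.43 and 2.83 TPM in the libraries labelled NCI-BL2171, from 225 and 228 reads. It was 19.1-fold higher in RPMI-8226 (log2 difference 4.26 ± 0.08, adjusted p = 6.8e-21) and 25.0-fold higher in RPMI-8226-R (4.64 ± 0.08, adjusted p = 1.8e-21). CD47 had the smallest differences, with 37.5 and 32.9 TPM in those libraries, and was 2.38-fold higher in RPMI-8226 (1.25 ± 0.07, adjusted p = 1.5e-12) and 2.28-fold higher in RPMI-8226-R (1.19 ± 0.07, adjusted p = 3.3e-12). FCRL5 in RPMI-8226-R rested on 8 reads, and its call against the libraries labelled NCI-BL2171 (adjusted p = 0.0200) held under 9 of 14 alternatives. On log2(TPM + 1) the difference was 0.06 (adjusted p = 0.443, limma). The call was also lost without NCI-BL2171 replicate 1, NCI-BL2171 replicate 2 or RPMI-8226-R replicate 1.

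Genes of the closest pattern were found for each antigen above 1 TPM in any line, by the root mean square difference of log2(TPM + 1) over the 6 libraries among 19807 protein-coding genes. For TNFRSF17 these were RUNX3 (0.121) and ADGRB1 (0.125), for TNFRSF13B BACE2 (0.150) and SLC17A9 (0.165), and for SDC1 ZBTB38 (0.159) and TRIO (0.170). CD38 lay closest to LTF (0.112) and BARX2 (0.120), GPRC5D to ACY3 (0.136) and CAPN14 (0.156), and CD47 to TMEM205 (0.183) and EZR (0.213). NCAM1 had no gene as near. Its closest were HSPB8 (0.384), at mean levels of 7.08 TPM in RPMI-8226, 63.0 TPM in RPMI-8226-R and 0.422 TPM in the libraries labelled NCI-BL2171, and BHLHA15 (0.451), at 9.32, 51.3 and 0.611 TPM in the same order. With 3 lines, such likeness is a description of levels only.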

How the data were processed

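RNA-seq was made from 3 untreated lines with 2 libraries each. The authors deposited 1 table per library with length, effective length, TPM and estimated counts of each gene. The deposited estimated counts need not be whole and were rounded before testing, and the deposited TPM values were used as the authors gave them. Gene lengths, another deposited unit in bases, served for an offset. The submitters' processing notes give GRCh38.p13 as the build. For the quantifier, its annotation and its strand setting, the sources used here give nothing. Positions are those of GENCODE 29 (GRCh38), and promoter windows are from RefSeq (GRCh38.p14). The 46 copies of pseudoautosomal genes on the Y chromosome were added to their X copies.

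The test was edgeR 4.0.16 (R 4.3.3) on TMM-scaled libraries. Genes had to pass filterByExpr with line as the group, a minimum count of 10 and a minimum total of 15. It used a robust two-sided quasi-likelihood F test over all 6 libraries (3 residual degrees of freedom), adjusted over 20081 genes by Benjamini-Hochberg at 0.05. That test gives no SE. The SE was approximated as the size of the log2 difference divided by the square root of F, and 95% intervals used the t distribution. The procedure was tested on simulated data. Where a line had 0 counts, the fold is a bound against 3 counts per library. Where it had 1 to 3, the fold is the ratio of counts and its 95% interval. These floors and intervals cover counting error only. The 2 libraries of each line differed beyond sampling noise. Chi-square per gene was 3.34 in RPMI-8226, 5.19 in the libraries labelled NCI-BL2171 and 10.2 in RPMI-8226-R, whereas the test used a spread common to the 3 lines. The alternatives were RLE and upper-quartile factors, an effective-length offset, DESeq2 1.42.0, limma-voom and limma-trend (limma 3.58.1) on log2(TPM + 1) and log2(TPM + 0.1), no filter, protein-coding genes alone, only the lines compared, a replicate block and leaving out each library. The antigens and lists of related genes were chosen with earlier results of these data known. Named genes are the 10 antigens, genes of the 12 lists (some are not reported here), the 2 closest patterns per antigen, genes that overlap an antigen, and protein-coding neighbours, up to 3 per side within 500 kb. The overlapping genes were added after values were seen.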

Additional observations from a re-analysis of the deposited data

How the results depend on the processing

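The number of antigen genes called in RPMI-8226-R against RPMI-8226 was 6, and 4 to 7 over the alternatives, with 4 to 6 when a library was left out. Against the libraries labelled NCI-BL2171, RPMI-8226 had 9 or 10 of 10 called and RPMI-8226-R 7 to 10, where 7 came from testing only the lines compared, in which SLAMF7, FCRL5 and LY9 did not reach the filter. Genes called numbered 10225 to 13688, 11674 to 16403 and 11671 to 16403 in the 3 comparisons. NCAM1, CD38, TNFRSF17 and SDC1 were called as higher in RPMI-8226-R than in RPMI-8226 in all 15 alternatives. Genes whose difference between these lines changed sign were CD47, at 0.05 with the effective-length offset, 0.02 with only the lines compared, and 0.37 and 0.38 on log2(TPM + 1) and log2(TPM + 0.1), TNFRSF13B at 0.31 and 0.32 on those 2 scales, and GPRC5D at 0.01 and 0.02 on them and -0.39 to 0.01 when a library was left out (0.01 without RPMI-8226 replicate 2). TNFRSF13B passed with protein-coding genes alone (-0.21, adjusted p = 0.0471) and without RPMI-8226-R replicate 2 (-0.27, 0.0349). The TPM scale shifts the genes tested by a median of 0.36, and single genes in either direction. The cause of these changes was not tested. SLAMF7 against the libraries labelled NCI-BL2171 did not pass on log2(TPM + 1), at 0.44 in RPMI-8226 and 0.18 in RPMI-8226-R. FCRL5 in RPMI-8226-R, at 0.06 on that scale, did not pass either. Both genes were under 1 TPM, where the added 1 shrinks any difference.

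Same-numbered libraries deviated together with correlations of 0.0615, 0.0765 and 0.113, so the numbers were not taken as pairs. The deposited files number the 2 NCI-BL2171 libraries the other way round from their titles. The titles were used, and the other numbering would turn the sign of the correlations of that line with RPMI-8226 (0.0765) and RPMI-8226-R (0.113) and swap its 2 left-out libraries. With the replicate block 13045, 15295 and 15426 genes were called in RPMI-8226-R against RPMI-8226, RPMI-8226 against NCI-BL2171 and RPMI-8226-R against NCI-BL2171, and 5, 10 and 10 antigen genes, the 1 call lost being LY9 (-1.56, adjusted p = 0.0960). Depth limits SLAMF7, LY9 and FCRL5, with 1 to 22 reads in the RPMI-8226 and RPMI-8226-R libraries.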
